A study of Homo sapiens with 4 samples.

Results

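The genes described here encode telomerase and the proteins that hold and replicate chromosome ends: TERT, TERF1, TERF2, TERF2IP, TINF2, POT1, ACD, DKC1, RTEL1 and TEN1. They were chosen by name, with earlier results of these data known, and were looked up in the deposited table that compares A549 cells with and without knockdown of the long noncoding RNA USP2-AS1. Of these 10 genes, 6 had a row among the 6828 genes of the table: the telomerase genes TERT and DKC1 and the shelterin genes ACD, TERF2, POT1 and TERF2IP. The table lists only genes that passed the study's own test of the same contrast, so these 6 genes were selected on the values given here, which are therefore a description with no p-value. TERF1, TINF2, RTEL1 and TEN1 had no row, so no value can be given for them, and the absence of a row does not show that they were unchanged.

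A549 is a human lung adenocarcinoma epithelial cell line. All libraries came from A549 cells infected with lentivirus, in the study's methods a pLKO.1 vector with puromycin selection. The shctrl group carried a control shRNA and the shUSP2-AS1 group an shRNA against USP2-AS1, and RNA was collected 72 h after infection, with 2 libraries per group described as biological replicates. Which of the study's USP2-AS1 shRNAs was used is not given in the sources used here, so each group is 1 construct in 1 cell line, and an effect of the construct and an effect of USP2-AS1 cannot be told apart. The libraries were made from poly-A RNA, and the value of a gene is its read count divided by a size factor of the library, called the normalized read count below.

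Human telomeres end in TTAGGG repeats that shorten as cells divide. Telomerase adds repeats back: TERT is its reverse transcriptase, its RNA is the template, and DKC1, or dyskerin, binds the box H/ACA end of that RNA and keeps it stable. Shelterin covers the repeats. TERF1 and TERF2 bind the double-stranded repeats, POT1 binds the single-stranded overhang, TINF2 joins these parts, TERF2IP, also called RAP1, rides on TERF2, and ACD, also called TPP1, pairs with POT1 and brings telomerase to the end. Most somatic cells silence TERT, and most cancer cells express it.

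The promoters of 4 genes are shown because these genes mark the ends of the range found below: TERT, DKC1 and ACD were the lowest relative to control, and TERF2IP was the only higher one. Each sequence runs from 250 bases before to 50 bases after the RefSeq start of the gene in GRCh38.p14, and capitals mark matches, on either strand, to the motifs searched. The TERT promoter lies at chr5:1295019-1295318 on the minus strand, that of DKC1 at chrX:154762614-154762913 on the plus strand, that of ACD at chr16:67660211-67660510 on the minus strand and that of TERF2IP at chr16:75647523-75647822 on the plus strand.
TERT: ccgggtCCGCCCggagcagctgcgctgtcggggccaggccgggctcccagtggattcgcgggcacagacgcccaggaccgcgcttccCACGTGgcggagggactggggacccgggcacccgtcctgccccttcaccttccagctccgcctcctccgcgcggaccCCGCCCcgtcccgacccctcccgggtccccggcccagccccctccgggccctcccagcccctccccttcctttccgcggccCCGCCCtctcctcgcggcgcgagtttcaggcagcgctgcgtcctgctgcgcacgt
DKC1: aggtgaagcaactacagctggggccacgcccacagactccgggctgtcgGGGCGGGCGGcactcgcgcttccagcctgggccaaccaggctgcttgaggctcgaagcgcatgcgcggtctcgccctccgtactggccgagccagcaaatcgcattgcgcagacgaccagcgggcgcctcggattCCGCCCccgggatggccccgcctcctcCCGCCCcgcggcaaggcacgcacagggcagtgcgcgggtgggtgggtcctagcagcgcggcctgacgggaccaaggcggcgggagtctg
ACD: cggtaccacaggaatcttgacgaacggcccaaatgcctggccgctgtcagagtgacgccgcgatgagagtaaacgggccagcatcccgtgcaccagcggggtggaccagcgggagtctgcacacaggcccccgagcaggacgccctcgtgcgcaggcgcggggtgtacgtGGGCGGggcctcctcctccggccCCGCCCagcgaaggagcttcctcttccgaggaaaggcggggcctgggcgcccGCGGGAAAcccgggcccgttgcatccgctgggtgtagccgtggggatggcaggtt
TERF2IP: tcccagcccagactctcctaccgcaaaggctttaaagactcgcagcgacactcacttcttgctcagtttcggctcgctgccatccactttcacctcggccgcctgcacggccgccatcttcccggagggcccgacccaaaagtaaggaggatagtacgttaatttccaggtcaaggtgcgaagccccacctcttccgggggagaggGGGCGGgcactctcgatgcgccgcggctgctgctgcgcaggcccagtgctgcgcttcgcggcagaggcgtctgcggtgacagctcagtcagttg

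Of the 5 promoters that could be read (POT1 is the fifth, and TERF2 had no entry), only that of TERT held the E-box CACGTG, the sequence bound by MYC and its partner MAX, with 1 match that begins at position -163 counted from the start. The TERT sequence shown ends in cacgt, so a match that runs past its end would not be counted, and the count holds only for the bases shown. The E-box occurs in 7.26% of 35116 promoters of the same length. A GC box, GGGCGG, which SP1 binds, was found in all 5: 3 times in TERT, 4 in DKC1, 2 each in ACD and POT1 and 1 in TERF2IP, against a share of 45.0% of all promoters. Of the DKC1 matches 1 pair overlapped. An E2F spelling, searched as TTTCCCGC, TTTCGCGC, TTTGCCGC or TTTGGCGC, was found only in ACD, from position -5 and running across the start, against 3.31% of all promoters. The cell cycle homology region TTTGAA (15.2% of all promoters) and the ETS site CCGGAAGT (4.14%) had 0 matches in the 5. These are matches of letters, not evidence of binding. The TERT promoter was 77.3% G or C and that of ACD 70.0%, where the median of all promoters was 58.7%. The RefSeq start equals the start in the deposited table for TERT and TERF2IP and lies 122 bases from it for DKC1, 158 for POT1 and 555 for ACD.

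The targeted transcript checks the labels. USP2-AS1 was covered by 24 and 22 reads in control and by 2 and 7 reads after knockdown, a log2 fold change of -2.39 with a standard error (SE) of 0.56 (limma, adjusted p = 0.000597), with no overlap between groups. Leaving out the knockdown library with 2 reads gave -1.78, and leaving out the one with 7 gave -2.99, so the size of the knockdown is poorly fixed. This p-value is also conditional on the selection of the table. The reads on listed genes summed to between 10772788 and 14120472 per library. Of the epithelial markers, KRT8, KRT18 and KRT19 were listed and EPCAM and CDH1 were not, 2 of 6 fibroblast markers (COL1A1 and LUM) were listed, and 0 of 5 blood markers were. Only genes that differed between the groups have a row, so a missing row does not show that a marker was not expressed. The listed markers differed between the groups, as every listed gene did, and not in 1 direction. KRT8 was at 87504.0 and 79777.1 normalized reads in control and 48220.3 and 49976.3 in the knockdown, and KRT18 at 30473.1 and 29565.4 against 14144.8 and 14811.4, so both were lower. KRT19 was higher, at 3698.9 and 3254.0 against 5689.1 and 5951.7. COL1A1, at 260.9 and 293.4 against 530.0 and 618.1, and LUM, at 1.933 and 1.099 against 25.24 and 15.85, were higher too. The part of other cell types in the results was not tested.

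TERT carried the largest difference of the 6 genes. The gene lies on chromosome 5, from 1253147 to 1295068 on the minus strand (GRCh38), and its normalized read count reached 266.7 and 258.3 in control against 21.03 and 21.13 in the knockdown. Both knockdown libraries were low, both control libraries were high, and the groups lay far apart. The control mean of 262.5 ± 5.96 (SD, n = 2) stood against a knockdown mean of 21.08 ± 0.0697 (SD, n = 2), so that 8.03% of the control level was left. On the log2(value + 1) scale the fold change was -3.58 (SE 0.20), which is 11.9-fold lower. It was the 10th lowest of 6812 tested genes. The knockdown values rest on 20 and 24 reads, against 276 and 235 in control. Exact Poisson 95% intervals, which cover counting error only, ran from 12.8 to 32.5 and from 13.5 to 31.4 normalized reads in the knockdown libraries and from 236 to 300 and from 226 to 294 in the control libraries, so the near equality of the knockdown pair is closer than counting can resolve. TERT mRNA was thus still counted in both knockdown libraries.

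DKC1, the pseudouridine synthase of box H/ACA particles and a stable subunit of telomerase, was the most abundant of the 6 genes in both groups. It lies on chromosome X, from 154762742 to 154777689 on the plus strand. Its normalized read count was 3016.7 and 3029.8 in shctrl and 1326.0 and 1368.2 in shUSP2-AS1. The control pair differed by less than the gap to the knockdown pair, which was 2.24-fold lower (log2 fold change -1.17, SE 0.06), with 44.6% of the control level left. The snoRNAs SNORA36A and SNORA56 and the microRNA MIR664B lie inside DKC1 on the same strand and had no row of their own.

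**Figure D1:**
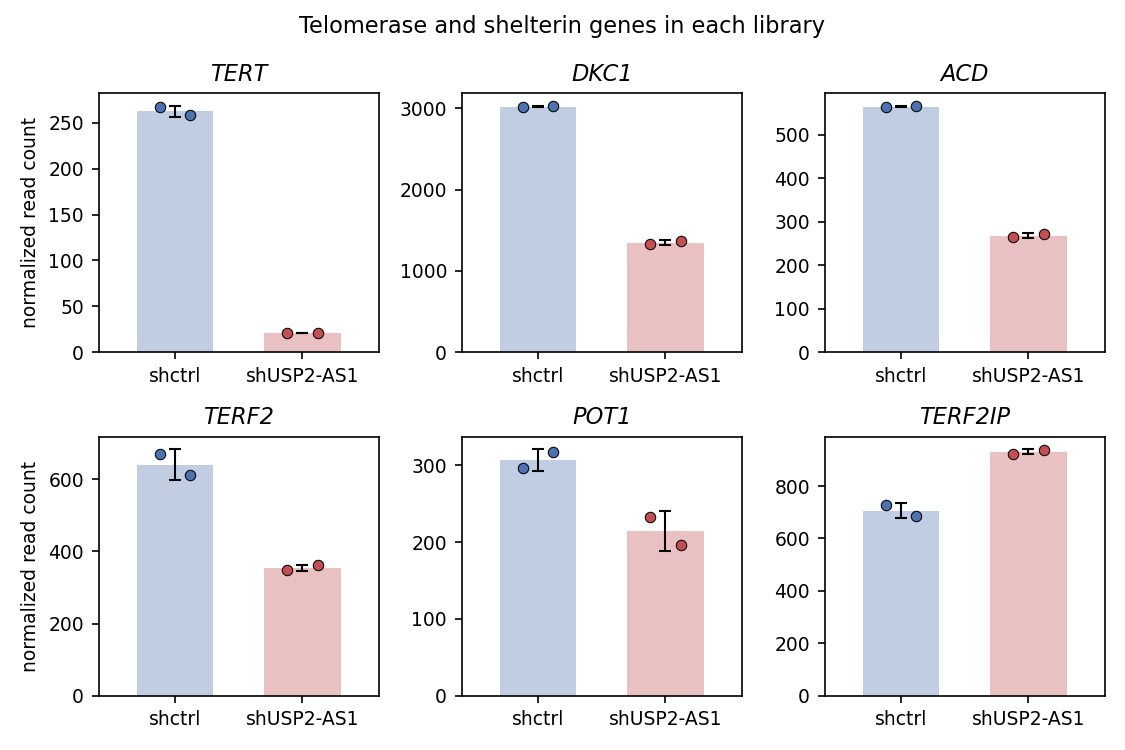
Normalized read count (vertical axis, linear, from 0) of each of the 6 listed genes in the shctrl and shUSP2-AS1 libraries. Points are single libraries, bars are group means and error bars are the SD of 2 libraries. TERT was at 21.03 and 21.13 in the knockdown against 266.7 and 258.3 in control, and TERF2IP is the only panel in which the knockdown bar is the taller.

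Of the 6 shelterin subunits, 4 were listed, and 3 of these were lower in the knockdown. ACD, which recruits telomerase to the chromosome end, lies on chromosome 16, from 67657512 to 67660815 on the minus strand. It was at 563.3 and 566.0 normalized reads in shctrl and at 263.9 and 272.1 in shUSP2-AS1. The pairs were tight and did not overlap, 2.1-fold apart (log2 fold change -1.07, SE 0.09). ACD is therefore only just past a fold of 2.

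TERF2, whose protein folds the chromosome end into a protective loop, lies on the same chromosome, from 69355567 to 69408571 on the minus strand. It was at 670.6 and 611.0 normalized reads in shctrl and at 349.1 and 361.0 in shUSP2-AS1. Its control libraries were more spread than those of ACD, yet both stood above both knockdown libraries, and the log2 fold change of -0.85 (SE 0.09), 1.8-fold lower, fell short of a fold of 2. In GENCODE release 44 the gene CYB5B on the opposite strand overlaps TERF2 over 10170 bases and another gene on the same strand over 740 bases. Whether reads were counted by strand is not given in the sources used here, so reads of such neighbours in TERF2 cannot be told apart. The same holds for ACD, which CARMIL2 overlaps on the opposite strand over 58 bases, and for POT1, which POT1-AS1 overlaps over 111.

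POT1, which caps the single-stranded overhang, lies on chromosome 7, from 124822386 to 124929983 on the minus strand. It was at 296.6 and 316.5 normalized reads in shctrl and at 232.4 and 195.5 in shUSP2-AS1. The knockdown libraries were the more spread pair, and the lower control value was still above the higher knockdown value. The difference was the smallest of the 5 lower genes, 1.44-fold (log2 fold change -0.52, SE 0.12), with 69.8% of the control level left.

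TERF2IP differed from its partners in direction. The gene lies on chromosome 16, from 75647773 to 75761872 on the plus strand, and its product binds TERF2 at the telomere and also has roles away from it. It was at 727.6 and 685.8 normalized reads in shctrl and at 924.3 and 937.7 in shUSP2-AS1, so both knockdown libraries were higher. The knockdown mean was 1.32-fold higher (log2 fold change 0.40, SE 0.07). Its start overlaps KARS1, a lysyl-tRNA synthetase gene on the opposite strand, by 871 bases. KARS1 went the other way, at 3462.1 and 3449.7 in shctrl and 2107.4 and 2183.4 in shUSP2-AS1 (log2 fold change -0.69, SE 0.05). How reads from the shared stretch were assigned is not given in the sources used here, and their part in the TERF2IP value was not tested.

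A gene was called when its limma adjusted p was below 0.05 over all 6812 tested genes, those with a mean value of at least 10, and its level differed by a fold of at least 2. By this rule 3 of the 6 listed genes were called lower (TERT, DKC1 and ACD) and 0 were called higher. Among all tested genes 13.5% were called lower and 16.1% higher. The groups did not overlap for any of the 6 genes, 5 of which were lower and 1 higher, but this was so of nearly every gene of the table, 49.3% lower and 50.6% higher, because the table holds only genes selected for such a difference. The median log2 fold change was -0.96 over the 6 genes and 0.19 over all tested genes, of which 49.4% lay below 0. Few genes of the table lie near 0, so the median of all genes moves easily. Nothing is read from these shares about the 6 genes as a group, since they were selected in the same contrast. Less RNA per cell and a smaller share of cells that express a gene cannot be told apart in such bulk libraries.

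**Figure D2:**
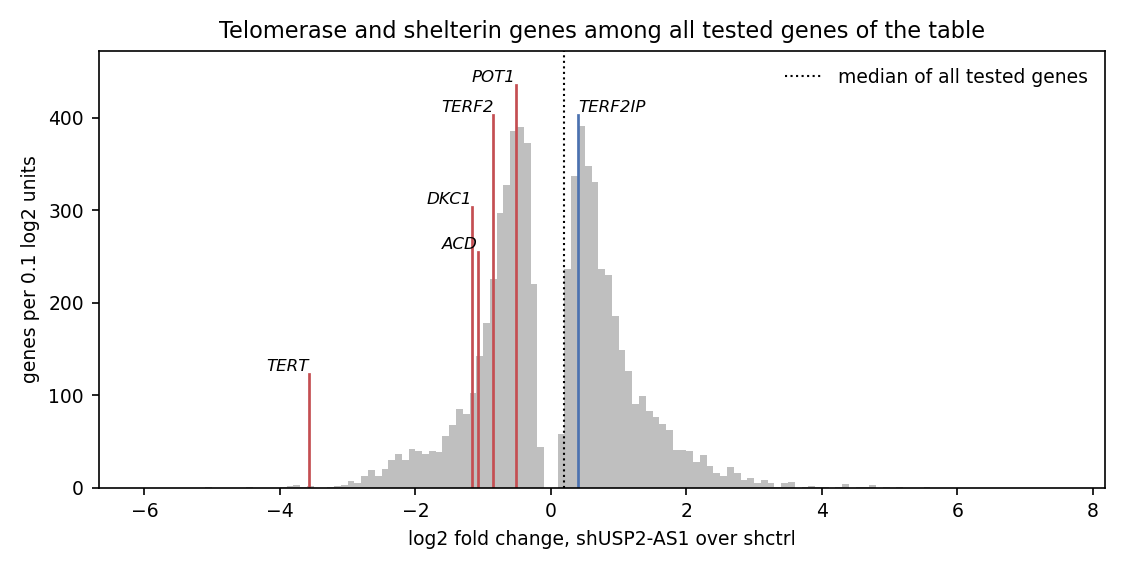
Histogram of the log2 fold change, shUSP2-AS1 over shctrl, of all 6812 tested genes (horizontal axis, log2; vertical axis, genes per 0.1 log2 units). Lines mark the 6 genes, with heights chosen only to keep the names apart, and the dotted line the median of all tested genes, 0.19. The gap around 0 reflects that only genes with an adjusted p below 0.05 in the study's DESeq2 comparison were listed, whatever their fold. TERT at -3.58 is in the far left tail, while the other 5 lie inside the 2 main humps.

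Levels of different genes can be set side by side only per length. Divided by the gene length in the deposited table, the normalized read count per kilobase in shctrl was highest for DKC1 (719.3 ± 2.22, SD, n = 2), followed by ACD (175.2 ± 0.578), TERF2IP (159.8 ± 6.69), TERF2 (113.7 ± 7.48), TERT (44.34 ± 1.01) and POT1 (35.17 ± 1.61). None of these neighbours overlapped between their single libraries. Of these pairs, ACD and TERF2IP changed places when the coding length was used, with a ratio of 0.697 in place of 1.1, and TERT and POT1 changed places with the canonical transcript length (ratio 0.833 in place of 1.26) and with the coding length (0.48), so neither order is firm. In shUSP2-AS1 the order was DKC1 (320.5 ± 7.09), TERF2IP (210.5 ± 2.13), ACD (83.15 ± 1.78), TERF2 (63.02 ± 1.49), POT1 (24.54 ± 2.997) and TERT (3.561 ± 0.012). In the knockdown TERF2IP stood above ACD and POT1 above TERT under each of the 3 lengths. By the coding length, TERF2 (218.4) was above ACD (195.1) in the knockdown, the reverse of their order by gene length.

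**Figure D3:**
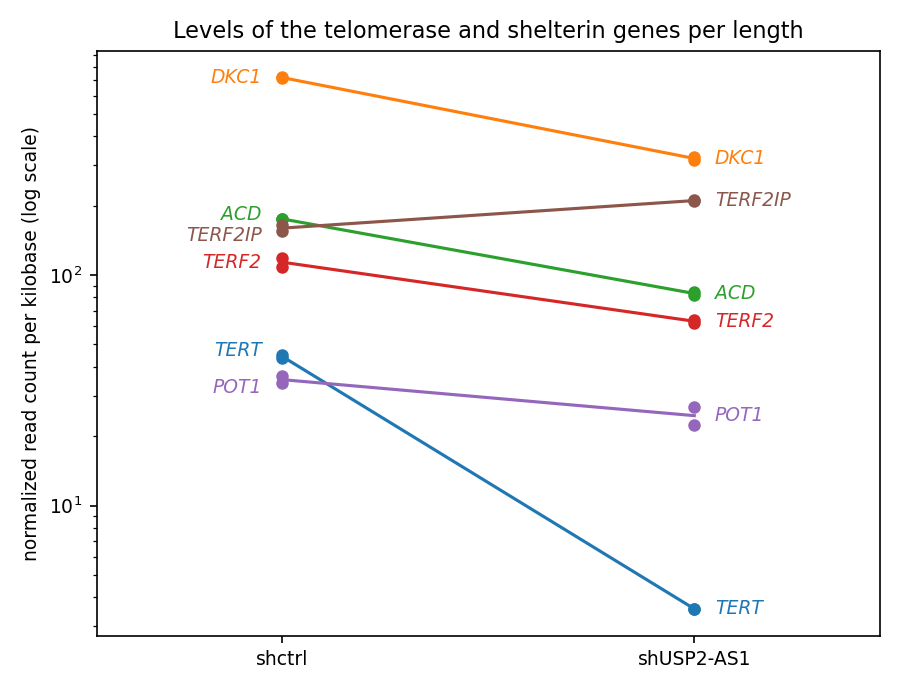
Normalized read count per kilobase of gene length (vertical axis, log scale) of the 6 genes in shctrl and shUSP2-AS1. Points are single libraries and lines join the group means. TERT drops from 44.34 to 3.561 and crosses POT1, and TERF2IP rises from 159.8 to 210.5 and crosses ACD.

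Ratios between genes of the same library do not depend on how libraries are scaled. The ratio of TERT to DKC1, both per kilobase, stood at 0.0628 and 0.0605 in control and at 0.0113 and 0.011 in the knockdown, 5.55-fold lower. The transcript of the catalytic subunit was thus lower by more than that of the RNA-binding subunit, whatever the scaling. The ratio of TERF2IP to TERF2, which encode binding partners, was 1.38 and 1.43 in shctrl and 3.37 and 3.31 in shUSP2-AS1, 2.37-fold higher. For the partners ACD and POT1 the ratio was 5.14 and 4.84 in shctrl and 3.07 and 3.76 in shUSP2-AS1, 1.46-fold lower. The ratio of ACD to TERF2 was 1.47 and 1.62 against 1.32 and 1.32, and that of POT1 to TERF2 was 0.286 and 0.335 against 0.43 and 0.35, both with a gap between groups about as large as or smaller than the spread within one of them. With 2 libraries per group, the smallest p an exact two-sided permutation test allows is above 0.05, so none is given.

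Other genes of telomere maintenance were read from lists written with earlier results of these data known. Of 29 genes for telomerase assembly and for the maturation of its RNA, 21 were tested, 6 were called lower and 0 higher, with a median log2 fold change of -0.90, where 13.5% of all tested genes were called lower and 16.1% higher and their median was 0.19. As the whole table was selected in the same contrast, this and the counts of the lists that follow are descriptions. The 6 were TOE1 (-1.45, SE 0.14) and PARN (-1.06, SE 0.24), both deadenylases that trim the telomerase RNA tail, NCL (-1.27, SE 0.05), nucleolin, PTGES3 (-1.22, SE 0.05), the p23 co-chaperone of HSP90 in telomerase assembly, WRAP53 (-1.17, SE 0.10), which guides telomerase to Cajal bodies, and MEPCE (-1.15, SE 0.07), an RNA capping enzyme. PARN was the least even of them, at 191.3 and 328.6 normalized reads in shctrl and 89.38 and 161.1 in shUSP2-AS1. Under the scaling by median ratios (RLE) the count of genes called lower was 11.

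The partners of DKC1 in the box H/ACA core, named for their role after their values were seen, were lower by less than DKC1 itself and were not called. GAR1 was at 417.4 and 423.1 normalized reads in shctrl and 229.2 and 269.4 in shUSP2-AS1 (log2 fold change -0.76, SE 0.11). NHP2 was at 1757.6 and 1593.5 against 1277.7 and 1234.4 (-0.41, SE 0.06), and NOP10 at 1548.9 and 1491.3 against 1271.4 and 1315.4 (-0.23, SE 0.06). NAF1, the assembly factor that GAR1 replaces, had a log2 fold change of -0.90 (SE 0.12). Of this list only TEP1 (0.47, SE 0.08) and TENT4B (0.32, SE 0.08), a poly(A) polymerase that extends immature telomerase RNA, had a positive log2 fold change, and neither was called.

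After telomerase has extended the G-rich strand, the CST complex and DNA polymerase alpha-primase fill in the other strand. Of the 6 genes of this list, 4 were tested and 4 were called lower, against 13.5% of all tested genes, with a median log2 fold change of -1.62 against 0.19: the primase subunits PRIM1 (-2.06, SE 0.15) and PRIM2 (-1.23, SE 0.13) and the polymerase subunits POLA1 (-1.58, SE 0.08) and POLA2 (-1.67, SE 0.18). These 4 proteins serve all DNA replication, not telomeres alone. POLA1 was at 914.1 and 941.8 normalized reads in shctrl and 301.8 and 318.7 in shUSP2-AS1. CTC1 and STN1, the CST subunits in the list, and TEN1 had no row, so no value of CST itself is given.

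Of 47 genes whose products process or protect ends together with shelterin, 21 were tested, 6 were called lower and 0 higher, with a median log2 fold change of -0.71, beside 13.5% lower, 16.1% higher and a median of 0.19 over all tested genes. They were the nucleases EXO1 (-2.73, SE 0.13), FEN1 (-2.08, SE 0.09), DNA2 (-1.36, SE 0.11) and DCLRE1B (-1.40, SE 0.14) and the RecQ helicases BLM (-2.40, SE 0.14) and RECQL4 (-2.20, SE 0.08). DCLRE1B, also called Apollo, is recruited to telomeres by TERF2, and it was at 283.1 and 247.3 normalized reads in shctrl and 103.1 and 95.97 in shUSP2-AS1. The other 5 act in DNA replication and repair throughout the genome. EXO1 showed the largest difference of the list, from 606.8 and 636.3 to 80.97 and 106.5, still smaller than that of TERT.

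Among 46 factors known to act on TERT transcription, 28 were tested, 6 were called lower and 3 higher, and the median log2 fold change was -0.52. Over all tested genes 13.5% were called lower and 16.1% higher, with a median of 0.19, and nothing is read from the counts of this list. Those lower were FOXM1 (-2.13, SE 0.07), E2F1 (-2.12, SE 0.08), BRCA1 (-1.97, SE 0.08), E2F7 (-1.39, SE 0.12), MXD3 (-1.24, SE 0.16) and ETS1 (-1.02, SE 0.08). Those higher were KLF4 (1.37, SE 0.08) and MXD4 (1.18, SE 0.06) and MXD1 (1.03, SE 0.13), of which the MXD proteins pair with MAX and repress at E-boxes. MXD1 was at 138.2 and 124.2 normalized reads in shctrl and 260.8 and 274.7 in shUSP2-AS1, and MXD3, of the same family, went from 267.7 and 212.1 to 111.5 and 89.8. MYC, which activates TERT through E-boxes, was at 2965.5 and 2927.6 in shctrl and 2104.2 and 2167.6 in shUSP2-AS1 (log2 fold change -0.46, SE 0.05) and was not called. SP1 had a log2 fold change of -0.37 (SE 0.07) and was not called either. MAX and GABPA had no row. The list mixes activators and repressors, and no part of these genes in the level of TERT was tested.

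**Figure D4:**
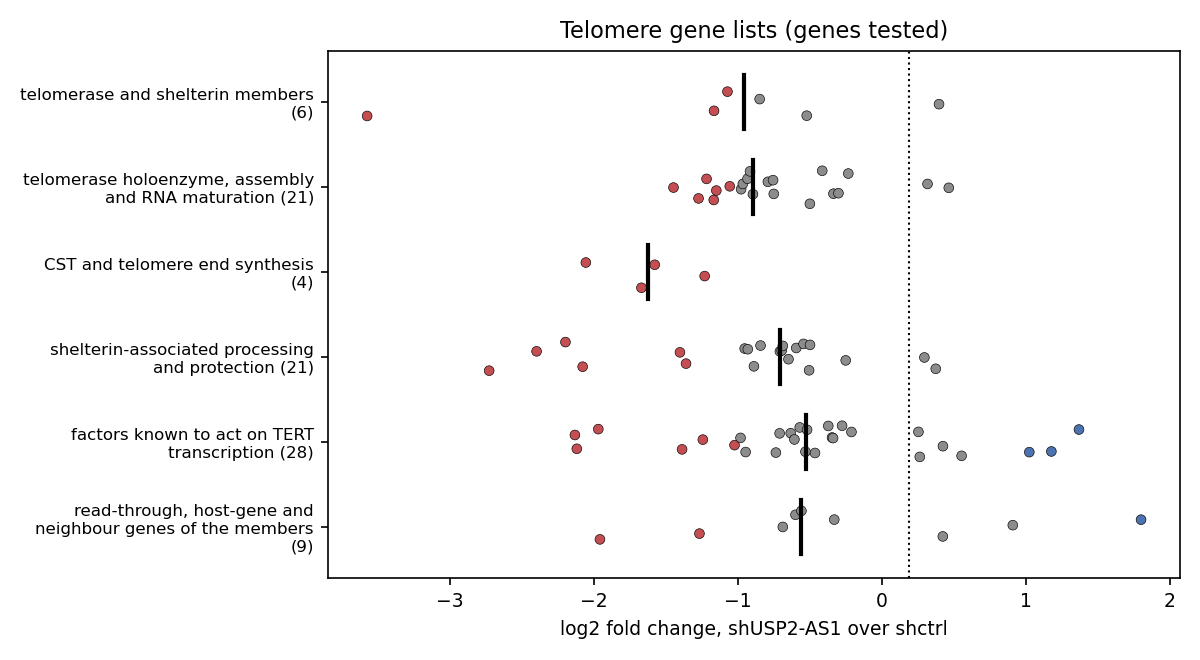
Log2 fold change, shUSP2-AS1 over shctrl (horizontal axis), of each tested gene of 6 lists, with the number tested in brackets. Red points were called lower, blue points higher and grey points were not called, thick bars are list medians, the dotted line is the median of all tested genes and the vertical scatter carries no value. All 4 tested genes of the list of CST and end synthesis, none of them a CST subunit, were called lower. Only the lists of TERT factors and of neighbour genes hold blue points.

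By distance between profiles over the 4 libraries, each profile in log2(value + 1) around its own mean, the genes most like TERT among 6039 candidates were LCN2 (distance 0.288), SKA3 (0.349), WDHD1 (0.392), CDC45 (0.587) and WDR62 (0.597). LCN2, a secreted iron-carrier protein, was at 236.7 and 194.5 normalized reads in shctrl and 14.72 and 14.09 in shUSP2-AS1, and SKA3, a kinetochore protein, at 334.3 and 349.5 against 28.39 and 21.13. Only these 2 of 6040 genes with a symbol and a mean of at least 100 had a log2 fold change below that of TERT, at -3.81 (SE 0.23) and -3.75 (SE 0.19). WDHD1 and CDC45 are replication proteins, and their log2 fold changes were -3.19 (SE 0.11) and -3.02 (SE 0.13). With 2 groups of 2 libraries, likeness here means a similar size of difference and little more.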

How the data were processed

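RNA-seq was performed on A549 cells infected with shctrl or shUSP2-AS1 lentivirus, with 2 libraries per group. Per the submitters' processing notes, HISAT2 (version 2.0.5), featureCounts (version 1.5.0-p3) and DESeq2 (version 1.20.0) were used with hg38. The authors deposited, for 6828 genes that passed an adjusted p below 0.05 in their comparison, a normalized signal per library, that is, reads scaled by the library's size factor. The adjusted p-values of that comparison, also deposited, served here only to check that all listed genes passed, and its log2 fold changes were not used. The columns named scr and sh216 were taken as shctrl and shUSP2-AS1.

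Whole reads recovered from the step between values fell within 0.01 of an integer for 100% of values in each library. Genes averaging 10 or more, 6812 in all, entered limma as log2(value + 1) (version 3.58.1, lmFit and eBayes with a trend, R version 4.3.3), and p-values were adjusted by Benjamini-Hochberg over all of them. Fold changes are on the log2(value + 1) scale. As alternatives edgeR (version 4.0.16) and DESeq2 (version 1.42.0) were run on the recovered reads, besides other pseudocounts, filters, scalings, a fold threshold of 1.5, the replicate number as a block and each library left out. The fits were tested on simulated data in which only a small part of the genes was changed. As nearly every listed gene differs here, that test does not bear on the scaling of these libraries. Replicates differed by more than sampling noise (chi-square per degree of freedom 3.752 and 3.842). P-values and SEs rest on the spread between these libraries, with the variance of each gene drawn towards a trend over all tested genes. As the table was selected in the same contrast, the p-values are conditional on that selection.

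The genes, the lists and the motifs were chosen with earlier results of these data known. Named are all 10 genes, the called genes of each list (at most 6 in a direction), MYC, MAX, E2F1, SP1 and GABPA where listed, the 5 genes most like TERT, and the nearest listed genes. Promoters are from RefSeq (GRCh38.p14), and transcript lengths, coding lengths and 3'UTRs from the canonical transcripts of GENCODE release 44, whose coordinates equal those of the table for 5 of the 6 genes and differ by 5 bases at one end of ACD. TERF1, TINF2, RTEL1 and TEN1 had no row and are not analysed here.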

Additional observations from a re-analysis of the deposited data

How the results depend on the processing

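The log2 fold changes of TERT, DKC1, ACD, TERF2, POT1 and TERF2IP kept their direction and their side of a fold of 2 under every alternative run, and 3 were called lower, or 4 at a fold of 1.5, where TERF2 joined them. Across other pseudocounts, filters, scalings and count tests TERT lay between -3.75 and -3.52, DKC1 between -1.28 and -1.11, ACD between -1.19 and -1.01, TERF2 between -0.97 and -0.79, POT1 between -0.64 and -0.46 and TERF2IP between 0.28 and 0.46. With each library left out, the ranges were -3.60 to -3.55 for TERT, -1.19 to -1.14 for DKC1, -1.09 to -1.05 for ACD, -0.92 to -0.78 for TERF2, -0.65 to -0.40 for POT1, 0.36 to 0.44 for TERF2IP and -2.99 to -1.78 for USP2-AS1. RLE scaling moved the median of all genes by -0.12, DESeq2 with its own size factors likewise, and both called 11 genes of the telomerase assembly list lower in place of 6. On the recovered reads edgeR called 923 genes lower and 1099 higher, while DESeq2, scaled by its own factors, called 1140 lower and 942 higher. Requiring 10 reads or more of each gene per library turned that median from 0.19 to -0.16, with fewer genes tested. At a fold of 1.5, 2040 genes were called lower and 2139 higher in place of 922 and 1098. The genes called lower then numbered 14 in the assembly list, 15 in the processing list, 12 among the TERT factors and 4 among the neighbours. Another 2 neighbours were called higher at that fold. Without shctrl replicate 2, the neighbour genes called higher were 2 in place of 1 (range 1 to 2 over the libraries left out). With the coding length the ratio of ACD to TERF2IP in shctrl was 0.697 and that of TERT to POT1 0.48, and with the canonical transcript length the latter was 0.833, in place of 1.1 and 1.26; these lengths were chosen after the data were seen. In the 250 bases before the start alone the E2F match of ACD was lost (0 matches). The planned RefSeq coding length was not run, because the table used gives gene spans. Whether replicate numbers pair the libraries is not given in the sources used here. The correlation of the replicate differences between groups was -0.04 over genes, which cannot settle it with 1 difference per group. The replicate block gave the same log2 fold change for TERT, -3.58, and the same 922 and 1098 calls. Few reads limit the precision of TERT and USP2-AS1, with 20 and 2 in their lowest library.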

Other observations

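The nearest listed genes to the 6 telomere genes differed in both directions. MPP1, which encodes a membrane scaffold protein and ends 995 bases beyond DKC1 on the opposite strand, was at 297.6 and 346.2 normalized reads in shctrl and 125.1 and 140.9 in shUSP2-AS1, and its log2 fold change, -1.27 (SE 0.13), was close to that of DKC1. CTCF, 18.3 kb from ACD, had a log2 fold change of -0.63 (SE 0.07), and NIP7, 12.5 kb from TERF2, one of -0.60 (SE 0.07). SLC12A7, the nearest listed gene below TERT at 141 kb, went the other way, at 255.1 and 293.4 in shctrl and 527.9 and 502.7 in shUSP2-AS1 (log2 fold change 0.91, SE 0.10), while MRPL36, 503 kb on the other side, had -0.45 (SE 0.10). Of 32 genes listed as neighbours or read-through partners of the 10, 9 were tested, with TRIP13 (-1.96, SE 0.08) and MPP1 called lower and STMN3 (1.80, SE 0.07), next to RTEL1, called higher, where 13.5% of all tested genes were called lower and 16.1% higher. TRIP13, an ATPase of the spindle checkpoint, lies on the same chromosome as TERT.

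The study's shRNA targets were compared with the transcripts of the 6 genes, because a short match to an shRNA's guide in a 3'UTR can lower an mRNA. The targets follow, with the bases that pair with guide positions 2 to 8 in capitals.
shUSP2-AS1#1: taatctcagcgagATGAAGAg
shUSP2-AS1#2: gcactcagttgtaCTTCTTTa
sh-control: cctaaggttaagtCGCCCTCg
TERT, DKC1, ACD and TERF2IP had 0 of these 7-base sites in the 3'UTR of the canonical transcript for all 3 shRNAs. For shUSP2-AS1#2, TERF2 had 1 and POT1 had 2, and 25.9% of the 6350 tested genes with a 3'UTR had such a site. For shUSP2-AS1#1 the share was 19.1% and for the control 5.09%. The longest run that each target shared with the TERT transcript was 7 bases, where the median over 6702 transcripts was 8 for shUSP2-AS1#1 and 7 for the other two. The POT1 transcript shared a run of 10 bases with shUSP2-AS1#2, which 3.86% of transcripts reached or passed. Which shRNA was sequenced is not given in the sources used here, and the part of such sites in the levels was not tested.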
